A study of Mus musculus with 6 samples.

Results

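Astrocyte and radial glia identity genes are the transcripts by which cells of this lineage are recognised, from the SOX and nuclear factor I transcription factors that set it up to the enzymes, secreted proteins and surface receptors of the grown cell. A list of 45 such genes was looked up by symbol in the deposited table. It held a row for 40 of them, among 14147 listed genes. Hes5, Ntsr2, Slc7a10, Slc6a11 and Cldn10 had no row and were not analysed here. In each row the higher of the group means is 0.5 FPKM or more. FPKM is the level of a transcript scaled to the summed length of all annotated exons of its gene and to the depth of the library. Levels of different genes can be set side by side on that scale. Annotated exons that the cells do not use lower the value.

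The samples were cultures of primary mouse astrocytes of wild-type genotype, sampled at 24 h. In 3 libraries the cells are labelled as treated with AQP4-IgG, human antibody against the astrocyte water channel aquaporin-4, and in the other 3 under Control-IgG, human control antibody. The series title speaks of conditioned medium, and the labels give neither the brain region and age of the animals nor whether replicates are separate cultures. The p-values therefore reflect only how much these libraries vary, and that variation may be technical. The comparison asks whether the lineage genes differ between cells given AQP4-IgG and cells given Control-IgG. Their order by level is given as a description of the cultures.

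As background, radial glia are the neural stem cells of the embryonic brain, and many of them turn into astrocytes around birth. Notch signalling, through Hes repressors, and Id proteins keep progenitors from becoming neurons, and SOX9 with the nuclear factor I proteins opens the astrocyte programme. Grown astrocytes take up transmitters, feed neurons with lipids and lactate, secrete factors that promote synapses and engulf debris. Purified cultures kept in serum are known to retain features of young cells.

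Depth and purity set the frame. Whole reads recovered from the values put the library totals at 20.4 to 20.6 M reads under AQP4-IgG and at 17.9 to 20.3 M reads under Control-IgG. Defining astrocyte transcripts outside the list were present: Gfap averaged 84.1 FPKM under AQP4-IgG and 77.7 FPKM under Control-IgG, and Slc1a3 averaged 49.3 and 39.3 FPKM in the same order. S100b, a calcium-binding protein used as an astrocyte marker, was near the bottom of the table at 1.05 ± 0.287 FPKM under AQP4-IgG and 1.16 ± 0.261 FPKM under Control-IgG (SD, n = 3 each). All 20 microglia and macrophage markers were listed and none was at 0, with a summed level of 1258 to 1424 FPKM in the AQP4-IgG libraries and 1278 to 1625 FPKM in the Control-IgG libraries. The lysozyme gene Lyz2 made up most of that sum, at 825 and 833 FPKM under AQP4-IgG and Control-IgG, and the median marker was at 20.6 FPKM. Of 17 fibroblast, meningeal and mural markers 9 were listed, with a median of 13.1 FPKM. The smooth muscle actin gene Acta2 stood far above the rest, averaging 2458 FPKM over the 6 libraries and ranking 6 among all listed genes. Of the others, Ogn averaged 110.3 FPKM, Col1a1 averaged 26.0, Tagln averaged 8.53 and Myh11 averaged 1.08 FPKM. Of 17 neuron markers 5 were listed, of 10 endothelial markers 3 and of 17 oligodendrocyte lineage markers 7. In bulk RNA, fewer cells of a type and less RNA per cell cannot be told apart, and which cells gave a transcript was not measured.

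By level, the identity genes spanned more than 3 orders of magnitude, and a few secreted and lipid-binding proteins stood at the top. Over the 6 libraries Cst3, which encodes the cysteine protease inhibitor cystatin C, averaged 1001 FPKM and ranked 21 among all listed genes. The lipid carrier Apoe followed at 408 FPKM and the antioxidant enzyme Prdx6 at 300.0 FPKM. Tril, an accessory protein of Toll-like receptors, was lowest at 0.774 FPKM, which rested on 54 to 103 recovered reads per library. In all, 35 of the 40 genes lay above the median of listed genes (6.0 FPKM), 27 above the upper quartile (15.1 FPKM) and 12 above the 95th percentile (60.6 FPKM). Together they made up 1.33% to 1.39% of the summed FPKM in AQP4-IgG libraries and 1.35% to 1.4% in Control-IgG libraries.

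Genes known from radial glia and genes known from grown astrocytes were mixed in this order. The brain lipid-binding protein gene Fabp7, a classical radial glia transcript, averaged 189.6 FPKM, Id3 averaged 236 FPKM, Id1 averaged 155 FPKM and Sox2 averaged 107 FPKM, but Hes1 averaged 24.6, Notch1 averaged 16.7 and Pax6 averaged 4.16 FPKM. Among genes of astrocyte metabolism, Plpp3 averaged 83.0 FPKM, Aldoc, the brain isoform of the glycolytic enzyme aldolase, averaged 31.5 FPKM, the folate enzyme gene Aldh1l1 averaged 23.1 FPKM and Ndrg2 averaged 14.3 FPKM. Acsbg1, an acyl-CoA synthetase of astrocytes, averaged 52.9 FPKM, and the adhesion molecule Hepacam reached 35.9 FPKM. Outside the list, the median level was 8.48 FPKM for the other radial glia and progenitor genes and 13.7 FPKM for the other mature astrocyte genes, and the glutamine synthetase gene Glul, of the mature list, averaged 124 FPKM. The top 10 were Cst3, Apoe, Prdx6, Dbi, Id3, Fabp7, Gpc4, Clu, Id1 and Sox2, and each of the 6 libraries gave the same 10. The order also depends on the annotated exon lengths. In AQP4-IgG 1, Nfib had 4073 recovered reads over 14957 exon bases (13.3 FPKM), and Id1 had 3695 over 1160 bases (155 FPKM). Which exons the cells used was not measured. Of 39 neighbouring pairs in the order, 18 differed by less than the larger SD of the pair over the 6 libraries, so that, for example, the order of Fabp7, Gpc4, Clu and Id1, of Hepacam, Lhx2, Sox9, Aldoc and Mfge8, and of Scg3, Ttyh1, Ptprz1, Nfib and Ndrg2 is not resolved.

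**Figure D1:**
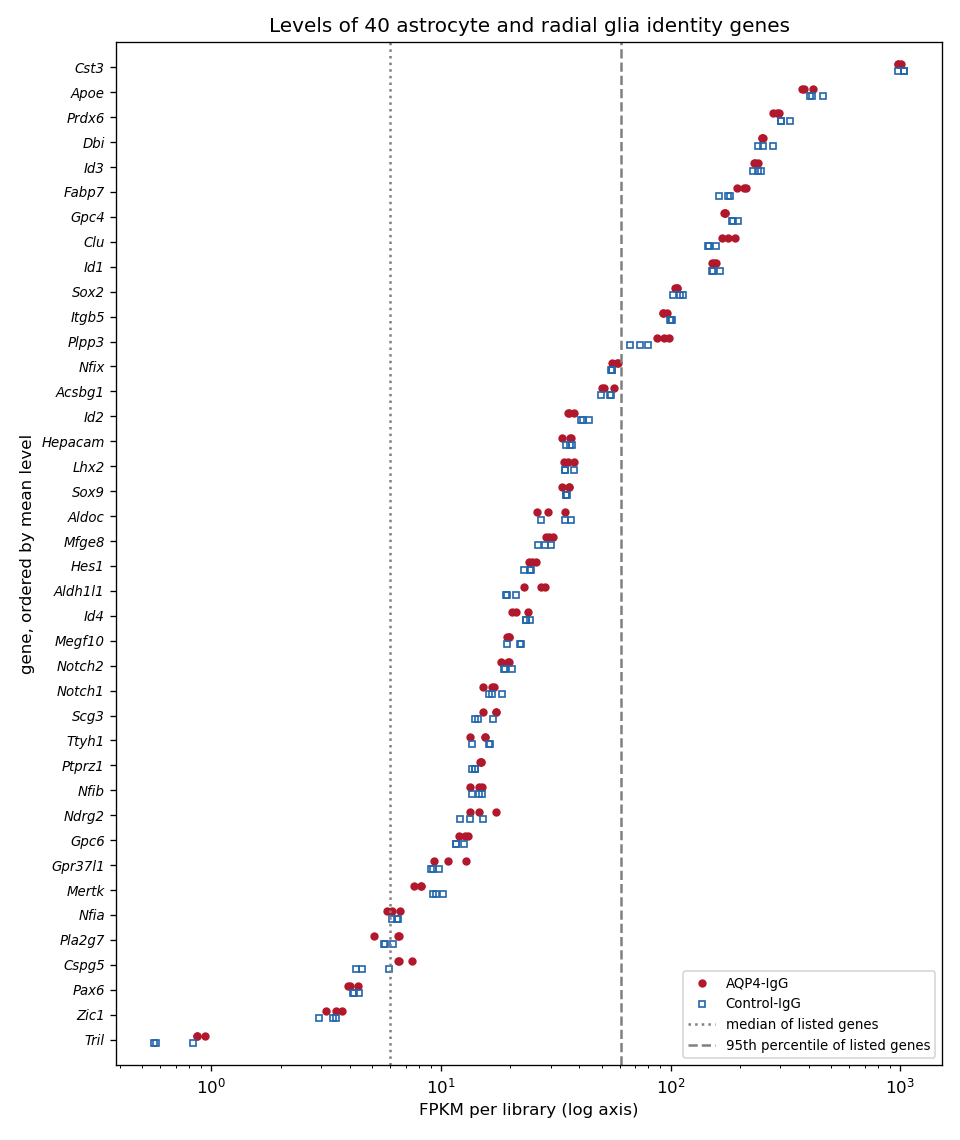
Level of each of the 40 listed identity genes in FPKM on a log axis, with 1 filled circle per AQP4-IgG library and 1 open square per Control-IgG library. The vertical lines mark the median (6.0 FPKM) and the 95th percentile (60.6 FPKM) of listed genes. The libraries of a gene lie close together, and the order runs down from Cst3 at 1001 FPKM to Tril at 0.774 FPKM.

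Between the groups, no identity gene passed the test, and the differences seen were small. Of the 39 genes whose mean reached 1 FPKM, 0 passed an adjusted p of 0.05 in limma in either direction, where 2.09% of all 12334 tested genes did (1.46% higher and 0.632% lower under AQP4-IgG). At an unadjusted p under 0.05 there were 10 of the 39, or 25.6%, 5 higher and 5 lower, where 13.3% of all tested genes reached that level. The ratio of group means ran from 0.832 for Mertk to 1.4 for Cspg5. The median log2 fold change, taken on log2(FPKM + 1), was -0.01 for the identity genes and 0.00 for all tested genes, and 23 of the 39 lay within 0.1 of 0. In 11 of the 39 the ranges of the groups were apart, 28.2% where all tested genes gave 19.0%. AQP4-IgG was the upper range in 6 of them (15.4%, where all tested genes gave 10.4%) and the lower in 5 (12.8%, where all tested genes gave 8.58%).

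Several genes missed the threshold narrowly, and whether they passed depended on the fit. Plpp3, Aldh1l1, Fabp7, Clu, Id2 and Mertk had adjusted p between 0.0504 and 0.074 with limma. Limma-voom on the recovered reads called 4 genes higher (Plpp3, Aldh1l1, Fabp7 and Clu) and 2 lower (Id2 and Mertk). Testing only genes whose mean reached 10 FPKM called the same 4 higher and Id2 lower. A block for replicate number called 5 higher and 3 lower, and whether these numbers pair the libraries is not known. Leaving out Control-IgG 1 called 3 higher (Plpp3, Clu and Cspg5), leaving out AQP4-IgG 3 called 1 (Aldh1l1), and 0 passed without any other library. The authors' deposited table has an adjusted p under 0.05 for 5 of the 40, or 12.5%, where 2.91% of its rows have one: Fabp7, Clu, Plpp3, Aldh1l1 and Cspg5, all higher under AQP4-IgG.

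**Figure D2:**
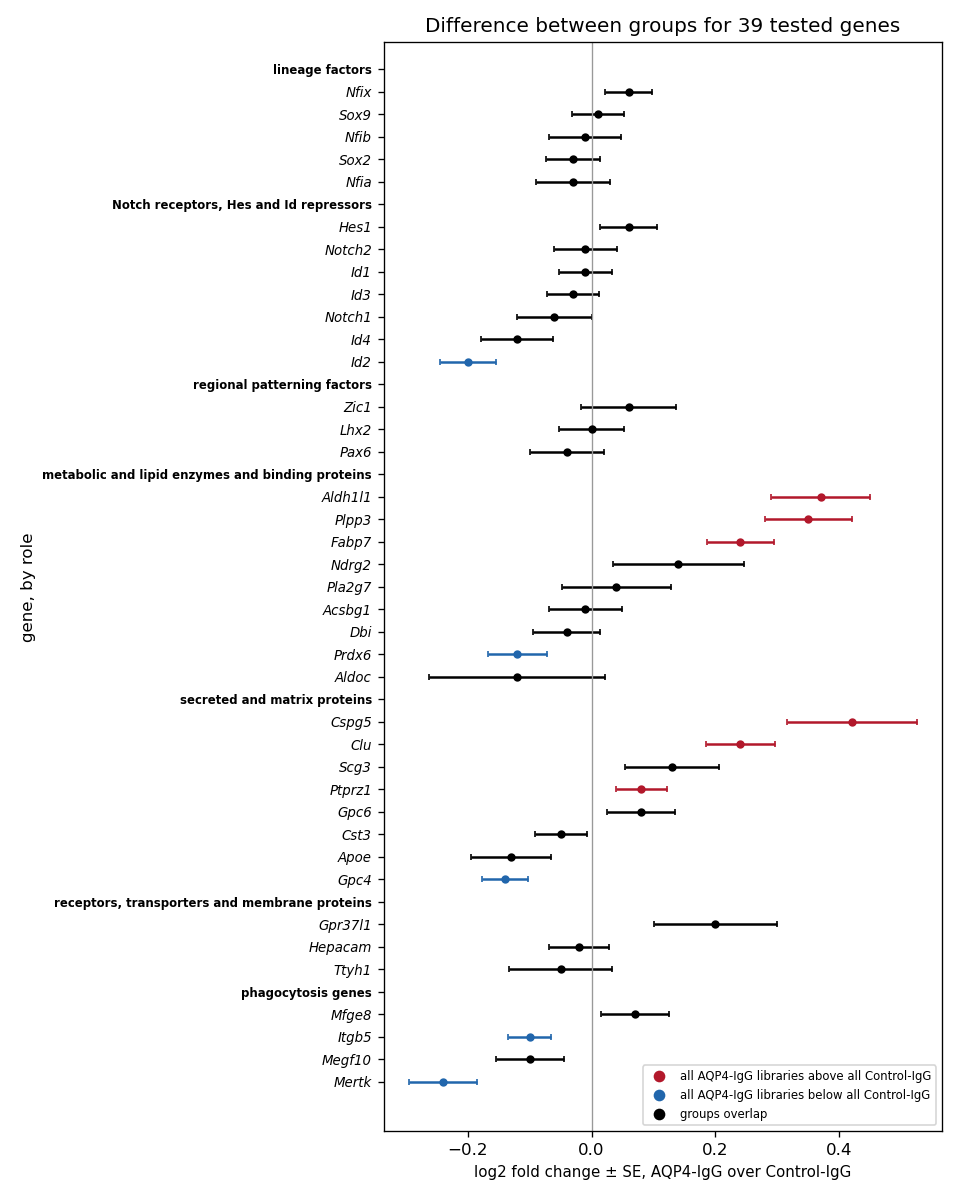
Log2 fold change of AQP4-IgG over Control-IgG with its SE (bars) for the 39 tested identity genes, by role, on the scale of log2(FPKM + 1). Red marks genes with all AQP4-IgG libraries above all Control-IgG libraries, blue the reverse and black an overlap. The highest values are those of Cspg5 (0.42), Aldh1l1 (0.37) and Plpp3 (0.35), and the lowest are those of Mertk (-0.24) and Id2 (-0.20).

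The lineage factors were nearly the same in both groups. Sox9, which starts gliogenesis, had 36.2, 36.1 and 33.7 FPKM in AQP4-IgG libraries 1 to 3, against 35, 35.2 and 35 FPKM in Control-IgG libraries 1 to 3. Sox2, a factor of stem cells that astrocytes keep, had 104, 106 and 107 FPKM under AQP4-IgG and 102, 113 and 110.1 FPKM under Control-IgG. The groups overlapped for both genes. Of the nuclear factor I genes, which drive astrocyte maturation, Nfix was the most abundant at 57.6 ± 1.86 FPKM under AQP4-IgG and 55.3 ± 0.444 FPKM under Control-IgG (SD, n = 3 each), and it had the smallest p of the 5 factors (log2 fold change 0.06, SE 0.038, adjusted p = 0.628 with limma). Nfib averaged 14.3 and 14.4 FPKM and Nfia averaged 6.21 and 6.34 FPKM, under AQP4-IgG first in each pair. The log2 fold changes of the 5 factors lay between -0.03 and 0.06, with SE of 0.0384 to 0.0596.

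Among the Notch receptors, Hes and Id genes, Id2 stood lower under AQP4-IgG and the others overlapped. Notch1 and Notch2 encode the receptors, cut on ligand binding to free a nuclear fragment. Notch1 averaged 16.3 ± 0.896 FPKM under AQP4-IgG and 17.1 ± 1.16 FPKM under Control-IgG, and Notch2 averaged 19.2 ± 0.832 and 19.4 ± 0.945 FPKM in the same order (SD, n = 3 each). Hes1, the repressor induced by that fragment, had 24.2, 25.9 and 25 FPKM under AQP4-IgG and 24.7, 23.0 and 24.5 FPKM under Control-IgG. The Id proteins have no DNA-binding region and hold back basic helix-loop-helix factors by pairing with them. Id2 had 36.0, 37.9 and 35.7 FPKM in AQP4-IgG libraries 1 to 3, against 41.7, 40.5 and 44.0 FPKM in Control-IgG libraries 1 to 3. Every AQP4-IgG library lay below every Control-IgG library, and the log2 fold change was -0.20 (SE 0.045, adjusted p = 0.0725 with limma). Id4 averaged 21.8 ± 1.75 FPKM under AQP4-IgG and 23.8 ± 0.512 FPKM under Control-IgG (SD, n = 3 each), and its libraries overlapped. Id1 and Id3, the most abundant of the family, had ratios of 0.99 and 0.98.

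The 3 regional patterning factors overlapped between the groups. Lhx2, a LIM-homeodomain factor of the forebrain, was the most abundant of the 3 at 35.9 ± 1.73 FPKM under AQP4-IgG and 35.8 ± 1.92 FPKM under Control-IgG (SD, n = 3 each). Pax6, a paired-domain factor of cortical radial glia, averaged 4.08 and 4.23 FPKM, and the zinc-finger factor Zic1 averaged 3.44 and 3.26 FPKM, under AQP4-IgG first. Zic1 had the smallest p of the 3 (log2 fold change 0.06, SE 0.077, adjusted p = 0.834 with limma). Among 42 further patterning genes 17 were listed.

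The genes of metabolism and lipid handling held Aldh1l1 and Plpp3, which with Cspg5 had the 3 highest ratios of the tested genes. Plpp3 encodes a surface phosphatase that breaks down signalling lipids such as lysophosphatidic acid. It had 98.5, 93.3 and 87.0 FPKM in AQP4-IgG libraries 1 to 3, against 79.3, 73.3 and 66.4 FPKM in Control-IgG libraries 1 to 3. The groups were apart, with a log2 fold change of 0.35 (SE 0.07) and an adjusted p of 0.0504 with limma. Its adjusted p ranged from 0.00172 to 0.175 over 15 alternative fits, of which 6 called it. Aldh1l1, the folate dehydrogenase that labels nearly all astrocytes in the grown brain, had 28.4, 27.2 and 22.9 FPKM under AQP4-IgG and 21.3, 19.4 and 19.2 FPKM under Control-IgG. AQP4-IgG 3 stood nearest to the Control-IgG libraries, and the log2 fold change was 0.37 (SE 0.08, adjusted p = 0.0637 with limma). Of its exon bases 13.4% overlap those of other annotated genes.

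Fabp7 showed the same separation at a higher level. It had 209, 195 and 212 FPKM in AQP4-IgG libraries 1 to 3, against 177, 162 and 182 FPKM in Control-IgG libraries 1 to 3 (log2 fold change 0.24, SE 0.054, adjusted p = 0.0647 with limma). Prdx6 lay on the other side, at 297, 289 and 278 FPKM under AQP4-IgG and 331, 303 and 302 FPKM under Control-IgG (adjusted p = 0.343 with limma). The gap between the groups was small beside the range within each. Dbi, the acyl-CoA-binding protein, averaged 250 ± 1.02 FPKM under AQP4-IgG and 257 ± 19.6 FPKM under Control-IgG (SD, n = 3 each). Acsbg1, Ndrg2 and Pla2g7, which inactivates platelet-activating factor, had ratios of 0.99, 1.11 and 1.04 with overlapping groups. Aldoc ranged from 26.2 to 34.8 FPKM under AQP4-IgG and from 27.3 to 36.8 FPKM under Control-IgG, and its SE of 0.142 was the largest of the list.

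Secreted and matrix genes went in both directions. Clu encodes clusterin, an extracellular chaperone. It had 191, 178 and 167 FPKM in AQP4-IgG libraries 1 to 3, against 158, 146 and 147 FPKM in Control-IgG libraries 1 to 3, and had the smallest p of the group (log2 fold change 0.24, SE 0.056, adjusted p = 0.0719 with limma). Cspg5, a membrane proteoglycan also called neuroglycan C, had the highest ratio of the tested genes at 1.4. Its values were 7.5, 6.53 and 6.5 FPKM under AQP4-IgG and 5.91, 4.28 and 4.51 FPKM under Control-IgG. The groups did not overlap, but Control-IgG 1 lay closer to the AQP4-IgG libraries than to the other controls (log2 fold change 0.42, SE 0.105, adjusted p = 0.103 with limma). Without Control-IgG 1 the adjusted p was 0.00847. Ptprz1, a receptor phosphatase for pleiotrophin, was apart by little, at 14.9, 14.7 and 14.9 FPKM under AQP4-IgG, against 14.0, 14.1 and 13.7 FPKM under Control-IgG.

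The glypicans are heparan sulfate proteoglycans through which astrocytes promote young excitatory synapses. Gpc4 had 171, 173 and 172 FPKM in AQP4-IgG libraries 1 to 3, against 186, 196 and 185 FPKM in Control-IgG libraries 1 to 3 (log2 fold change -0.14, SE 0.037, adjusted p = 0.124 with limma). Every AQP4-IgG library was lower, with a ratio of group means of 0.908. Gpc6 averaged 12.6 ± 0.6 FPKM under AQP4-IgG and 11.9 ± 0.606 FPKM under Control-IgG (SD, n = 3 each), with overlapping groups. Cst3 averaged 985 ± 17.8 and 1017 ± 39.2 FPKM and Apoe averaged 389 ± 24.7 and 426 ± 31.2 FPKM, under AQP4-IgG first (SD, n = 3 each), and neither was apart. Scg3, a protein of secretory granules, averaged 16.6 and 15.2 FPKM in that order. Microglia are known to make Cst3 and Apoe too, and the median log2 fold change of 19 tested microglia markers was -0.15. Their part in these values was not tested.

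Of 8 genes for receptors, transporters and other membrane proteins, 4 were listed and 3 tested. Hepacam, an adhesion protein of astrocyte endfeet, averaged 35.7 ± 1.77 FPKM under AQP4-IgG and 36.2 ± 1.13 FPKM under Control-IgG (SD, n = 3 each). Gpr37l1, an orphan receptor of astrocytes, had 12.9, 10.7 and 9.36 FPKM under AQP4-IgG and 9.83, 9.07 and 9.25 FPKM under Control-IgG (log2 fold change 0.20, SE 0.099, adjusted p = 0.467 with limma). AQP4-IgG 1 was the highest, and AQP4-IgG 3 lay within the range of the controls. Ttyh1, of a family of anion channel proteins, averaged 14.8 and 15.4 FPKM under AQP4-IgG first. Tril, below the level for testing, had 0.936, 0.869 and 0.868 FPKM under AQP4-IgG, against 0.834, 0.562 and 0.576 FPKM under Control-IgG. Of its exon bases 21.4% overlap those of an antisense gene, and whether reads were counted by strand is not given in the sources used here.

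Of the 4 phagocytosis genes Mertk and Itgb5 lay lower under AQP4-IgG without overlap, where 8.58% of all tested genes did, and 0 of the 4 passed the test in limma. Mertk encodes the receptor kinase that recognises dying cells through bridging proteins. It had 7.66, 8.16 and 8.21 FPKM in AQP4-IgG libraries 1 to 3, against 9.18, 10.2 and 9.53 FPKM in Control-IgG libraries 1 to 3. The groups were apart, and the log2 fold change was -0.24 (SE 0.055, adjusted p = 0.074 with limma). Itgb5, the integrin subunit that binds the bridging protein Mfge8, had 96.4, 93.0 and 92.5 FPKM under AQP4-IgG, against 101, 100.5 and 99.7 FPKM under Control-IgG (adjusted p = 0.277 with limma), and 7.25% of its 50-base stretches also occur in another annotated gene. The engulfment receptor gene Megf10 averaged 19.6 ± 0.283 FPKM under AQP4-IgG and 21.2 ± 1.53 FPKM under Control-IgG, and Mfge8 averaged 29.6 ± 1.17 and 28.2 ± 1.84 FPKM in the same order (SD, n = 3 each). Both overlapped. Mertk is known to be expressed by microglia as well, whose receptor gene Cx3cr1 had 9.19, 7.59 and 7.51 FPKM under AQP4-IgG and 13.3, 11.9 and 10.5 FPKM under Control-IgG (adjusted p = 0.0427 with limma). Of 19 tested microglia markers 1, Cx3cr1, passed, where 2.09% of all tested genes did. Without overlap, 5 lay lower, where 8.58% of all tested genes did, and 1, Itgam, lay higher, where 10.4% did. Itgam averaged 4.69 ± 0.372 FPKM under AQP4-IgG and 3.45 ± 0.384 FPKM under Control-IgG (SD, n = 3 each, adjusted p = 0.0707 with limma). Cd68, Cd14, Laptm5 and Lyz2 had ratios of 1.02, 1.02, 1.03 and 0.99. Whether microglial RNA took part in the lower Mertk values was not tested.

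**Figure D3:**
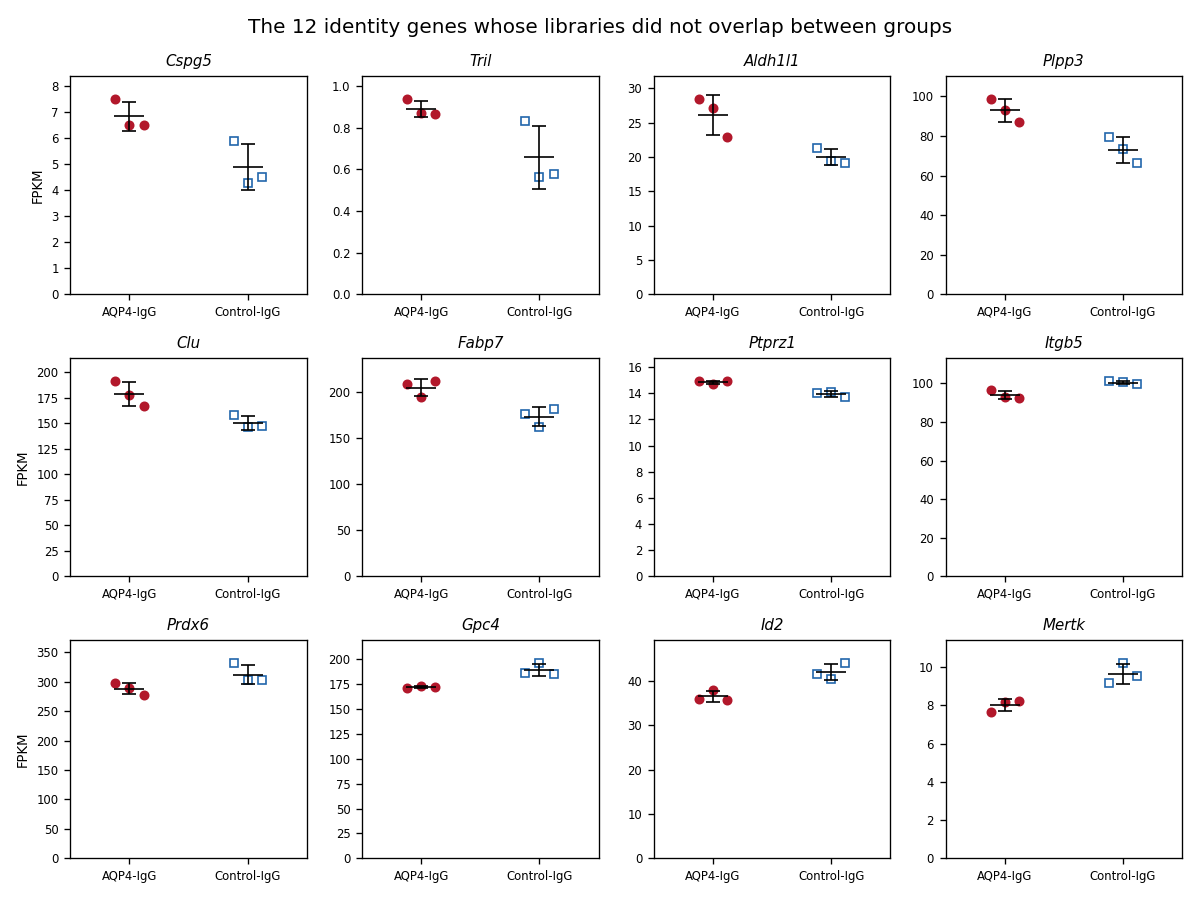
FPKM per library, from 0, of the 12 listed identity genes whose libraries did not overlap between groups, 11 of them tested and Tril too low for testing. Filled circles are AQP4-IgG libraries, open squares Control-IgG libraries, bars the mean and SD (n = 3 each). Panels run by falling ratio. From Cspg5 to Ptprz1 the AQP4-IgG libraries are higher, from Itgb5 to Mertk they are lower, and the gaps are small against the levels.

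Libraries of the same group differed in a way that many identity genes shared. AQP4-IgG 1 was the highest of its group in 20 of 39 genes (51.3%, against 40.1% of all tested genes), and AQP4-IgG 3 the lowest in 24 (61.5%, against 40.3%). Among the controls, Control-IgG 1 was the highest in 18 (46.2%, against 39.1%) and Control-IgG 2 the lowest in 18 (46.2%, against 31.3%). Gpr37l1, Ndrg2, Aldh1l1, Clu and Plpp3 were each highest in AQP4-IgG 1 and lowest in AQP4-IgG 3 within their group. Sox2, Lhx2 and Nfia were instead highest in AQP4-IgG 3. The coefficient of variation within a group had a median of 4.79% under AQP4-IgG and 5.05% under Control-IgG over the 40 genes.

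**Figure D4:**
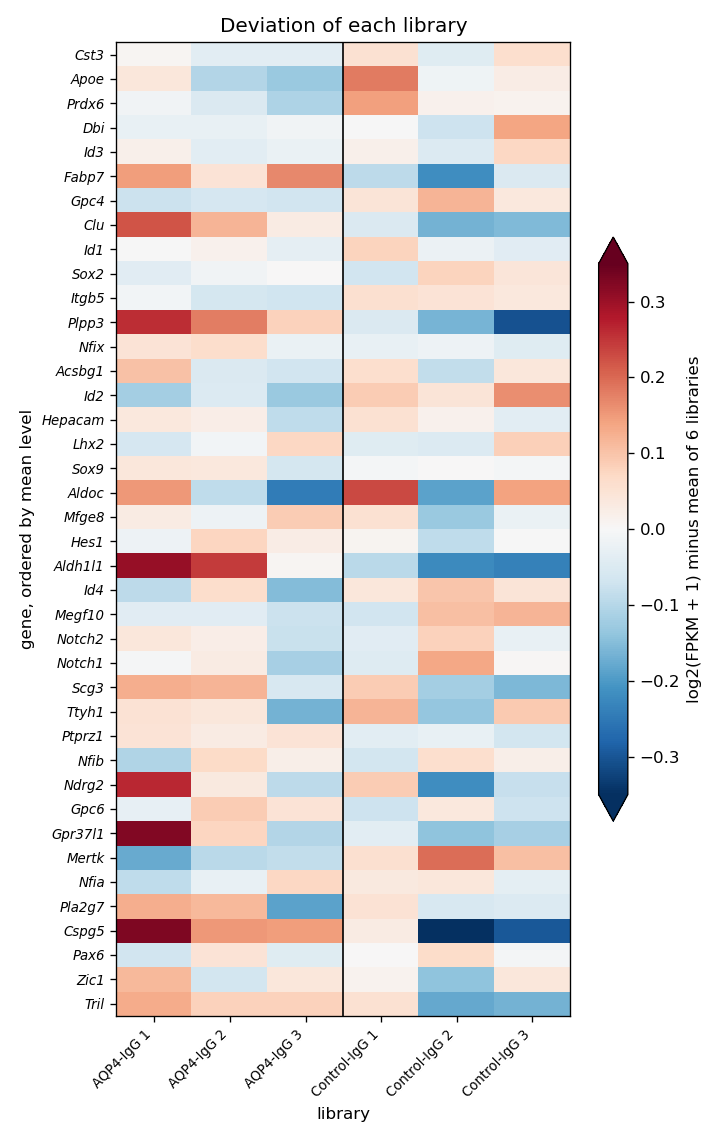
Log2(FPKM + 1) of each library minus the mean of the 6 libraries (colour) for the 40 listed identity genes, ordered by level, under AQP4-IgG libraries left of the line and Control-IgG libraries right of it. Plpp3, Clu, Aldh1l1 and Cspg5 are positive in AQP4-IgG libraries and negative or near 0 in Control-IgG libraries, and most rows are pale.

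Promoters of 5 of the genes whose groups were apart are shown because they are where the lineage factors and the partners of the Id proteins would be looked for first. RefSeq windows of GRCm38.p6, cut to the 250 bases before the annotated start, were found for 31 of the 40 genes, 42 windows in all. Those of Plpp3, Aldh1l1, Fabp7, Id2 and Mertk follow, chosen after their values were seen among genes with a window, which Cspg5 and Clu do not have here. They are written 5′ to 3′ on the strand of the gene, with each match to the E-box CANNTG in capitals. The Aldh1l1 window lies inside the span from 90486427 to 90600203 on chromosome 6 that the table gives for the gene, the Id2 window inside its span from 25093799 to 25097140 on chromosome 12, and the Fabp7 window runs over the start of its span at 57784881 on chromosome 10.
Plpp3, chr4:105157097-105157346, plus strand: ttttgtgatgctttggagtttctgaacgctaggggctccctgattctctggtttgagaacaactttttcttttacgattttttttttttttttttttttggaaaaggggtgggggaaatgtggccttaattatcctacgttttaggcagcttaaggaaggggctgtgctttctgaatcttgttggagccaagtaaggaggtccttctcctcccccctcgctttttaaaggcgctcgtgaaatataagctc
Aldh1l1, chr6:90550543-90550792, plus strand: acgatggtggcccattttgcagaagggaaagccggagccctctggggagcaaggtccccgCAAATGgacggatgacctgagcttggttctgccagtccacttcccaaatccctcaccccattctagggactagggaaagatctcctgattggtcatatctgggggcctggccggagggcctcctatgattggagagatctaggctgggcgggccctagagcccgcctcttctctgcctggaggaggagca
Fabp7, chr10:57784673-57784922, plus strand: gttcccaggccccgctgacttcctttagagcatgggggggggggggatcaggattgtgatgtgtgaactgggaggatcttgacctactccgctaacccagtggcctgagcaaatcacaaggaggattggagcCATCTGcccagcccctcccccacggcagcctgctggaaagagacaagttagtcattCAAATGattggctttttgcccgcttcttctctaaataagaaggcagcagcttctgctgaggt
Id2, chr12:25096093-25096342, minus strand: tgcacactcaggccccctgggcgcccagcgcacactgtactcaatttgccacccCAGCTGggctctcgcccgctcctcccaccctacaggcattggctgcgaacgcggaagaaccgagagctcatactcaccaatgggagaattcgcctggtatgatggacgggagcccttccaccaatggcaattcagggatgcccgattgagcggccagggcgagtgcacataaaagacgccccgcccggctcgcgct
Mertk, chr2:128698665-128698914, plus strand: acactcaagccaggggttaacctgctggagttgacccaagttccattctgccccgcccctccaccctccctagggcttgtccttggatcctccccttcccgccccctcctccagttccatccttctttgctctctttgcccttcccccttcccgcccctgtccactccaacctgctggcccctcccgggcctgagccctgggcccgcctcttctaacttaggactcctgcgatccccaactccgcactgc

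E-boxes, the sites of the basic helix-loop-helix factors that Id proteins sequester, were found in the Fabp7, Aldh1l1 and Id2 windows and not in those of Plpp3 and Mertk. Of the 42 windows of the identity genes 21 held an E-box on either strand, where 66.2% of 32851 RefSeq windows did. The RBPJ motif GTGGGAA, bound by the DNA partner of cleaved Notch, was found on either strand in windows of Aldoc and Mfge8, 4.76% of windows where 5.42% of all hold it. The STAT motif TTCNNNGAA was found in 9.52% of the windows and in 7.02% of all, the SOX motif ACAATGG in 2.38% and in 3.02%, and the full nuclear factor I site in 0 windows and in 0.0365% of all. By its letters the E-box can overlap the RBPJ motif and the nuclear factor I site, but not the SOX or STAT motif. The SOX motif can overlap the other 3. A match describes letters in the window, not a bound site.

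The pathways around these genes were read from lists of further genes. In the BMP pathway, which induces Id genes, 2 of 26 tested genes rose and 1 fell, where 1.46% of all tested genes rose and 0.632% fell. Nog, the secreted BMP antagonist noggin, fell to 9.67, 9.2 and 9.44 FPKM in AQP4-IgG libraries 1 to 3, against 12.4, 11.7 and 13.8 FPKM in Control-IgG libraries 1 to 3 (log2 fold change -0.38, SE 0.062, adjusted p = 0.0187 with limma). Bmp1, a metalloprotease that trims matrix and BMP antagonists and is not itself a BMP ligand, rose to 19.9, 18.9 and 18.6 FPKM under AQP4-IgG, against 15.6, 15.2 and 15.1 FPKM under Control-IgG (adjusted p = 0.0125 with limma). Ltbp1, which binds latent TGF-beta, rose 1.19-fold (adjusted p = 0.044 with limma). The most abundant gene of the list, the follistatin-related Fstl1, averaged 192 and 172 FPKM under AQP4-IgG first (adjusted p = 0.092 with limma). The median log2 fold change was 0.02. Without AQP4-IgG 1, 2 and 3 the list had 0, 0 and 1 genes past the threshold, and without Control-IgG 1, 2 and 3 it had 2, 1 and 1.

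In the rest of the Notch pathway 0 of 24 tested genes passed in limma, where 2.09% of all tested genes did, and 1 passed in limma-voom on recovered reads. Without overlap, 5 of the 24 lay higher under AQP4-IgG, where 10.4% of all tested genes did, and 3 lay lower, where 8.58% did. Notch3 had the smallest p, at 8.42 ± 0.221 FPKM under AQP4-IgG and 7.39 ± 0.087 FPKM under Control-IgG (SD, n = 3 each, adjusted p = 0.14 with limma). The protease gene Adam10, which makes the first cut of a bound receptor, was the most abundant at 50.4 and 50.6 FPKM under AQP4-IgG first. The median log2 fold change was -0.01.

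Of 22 other radial glia and progenitor genes tested, 1 rose and 0 fell, where 2.09% of all tested genes passed in either direction, and the median log2 fold change was -0.02. The one that rose was Slc1a3, the glutamate transporter GLAST shared by radial glia and astrocytes, at 51.9, 50.8 and 45.2 FPKM under AQP4-IgG, against 40.8, 38.8 and 38.1 FPKM under Control-IgG (adjusted p = 0.0304 with limma). The most abundant was the intermediate filament gene Vim at 1484 ± 23.2 FPKM under AQP4-IgG and 1541 ± 35.6 FPKM under Control-IgG (SD, n = 3 each). Of 33 other mature astrocyte genes tested, 2 rose and 0 fell, beside the same 2.09%, and the median was 0.01. They were Aqp4, at 131, 133 and 128 FPKM under AQP4-IgG against 112, 96.4 and 104 FPKM under Control-IgG, and the glutamate transporter gene Slc1a2, at 6.72, 7.24 and 5.94 FPKM under AQP4-IgG, against 5.17, 4.86 and 4.88 FPKM under Control-IgG (adjusted p = 0.0216 for Aqp4 and 0.0464 for Slc1a2 with limma). Sparc, the matricellular protein, was the most abundant at 1122 and 1100.5 FPKM under AQP4-IgG first. Without AQP4-IgG 1, 2 and 3 the mature list had 0, 0 and 1 genes past the threshold and the progenitor list 0, 0 and 1. Without Control-IgG 1, 2 and 3 the mature list had 4, 0 and 0 and the progenitor list 2, 0 and 0.

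**Figure D5:**
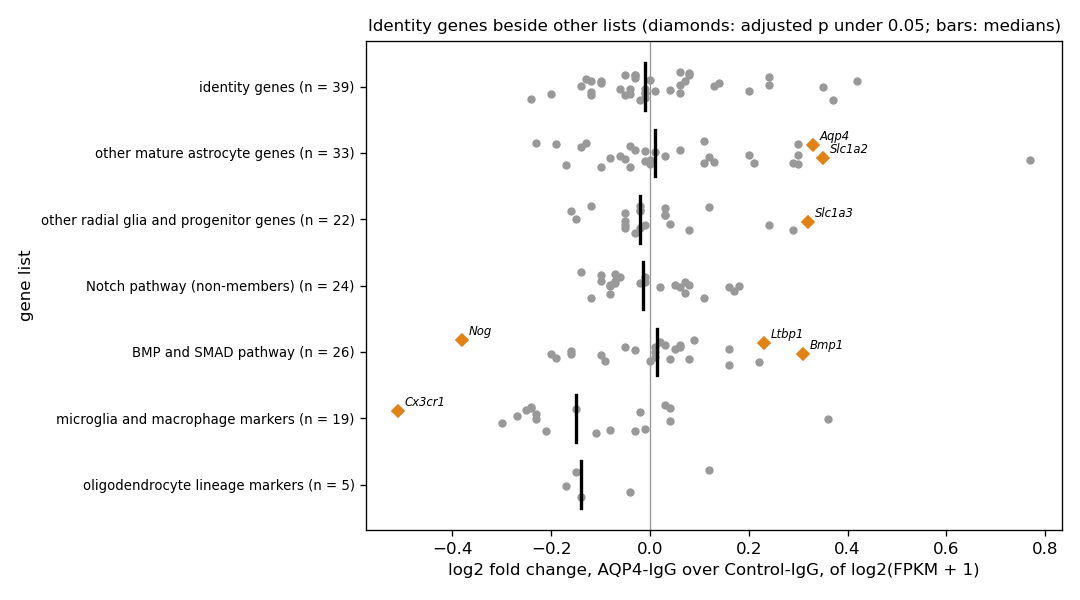
Log2 fold change of AQP4-IgG over Control-IgG, on log2(FPKM + 1), of each tested gene (points) in the identity list and in 6 other lists. Diamonds mark adjusted p under 0.05 with limma and bars the medians. The identity list has no diamond and a median of -0.01, and the BMP list holds Nog on the left with Ltbp1 and Bmp1 on the right.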

How the data were processed

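The table of 14147 genes gives 6 columns of FPKM as deposited by the authors. The unit is not in the header and was inferred: multiplied by summed exon length (GENCODE M21), values fall on whole multiples of 1 step per library, within 0.1 reads for 98.99% to 99.14% of values under 200 reads. M21 gave the same coordinates for 13291 genes. The builds GRCm38 and mm10 come from the submitters' processing notes. The aligner, the counting tool and strandedness: not given in the sources used here. The table also carries log2 fold changes, p-values and adjusted p-values that the authors computed; how is not stated. Control columns carry the number of the label. The other columns name a disease and were taken as AQP4-IgG 1 to 3, since the design has 2 groups.

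The test was limma 3.58.1 in R 4.3.3, with a trend and robust variance, on log2(FPKM + 1) for the 12334 genes whose mean reached 1 FPKM, adjusted over all of them by Benjamini-Hochberg at 0.05. The members and lists were chosen with earlier results of these data known. Values are given for each member. In the lists, up to 3 genes past the threshold are named, or the 1 with the smallest p, and the most abundant. The genes this names in the patterning list are not reported here. Alternatives were other scalings, filters, pseudocounts and variance settings, a block for replicate number, voom weights on recovered reads and leaving out each library. Limma-voom with quantile normalization was added after the data were seen. Pairs of libraries of a group differed by more than sampling noise (chi-square per gene of 3.91 to 7.24). On simulated data with 11505 genes, the test recovered 68% of changes of 1.25-fold and 98% of changes of 2-fold, with 12 false calls among 185. The simulation gave every gene the same dispersion (spread between replicates beyond sampling noise) of 0.002 and drew the libraries independently. The real libraries shared deviations over many genes, so these rates need not hold for them.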

Additional observations from a re-analysis of the deposited data

How the results depend on the processing

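Counts of called identity genes moved with the settings, and so did some values: over the alternatives the log2 fold change ran from 0.34 to 0.54 for Cspg5, 0.08 to 0.30 for Gpr37l1 and -0.25 to -0.03 for Aldoc. Against 0 higher and 0 lower identity genes, median scaling gave 2 higher, a mean of 10 FPKM or more gave 4 higher and 1 lower, limma-voom gave 4 higher and 2 lower, and limma-voom with quantile normalization, chosen after seeing the data, gave 5 higher and 2 lower. Over all genes, against 180 higher and 78 lower, limma-voom gave 334 and 168, its quantile form gave 315 and 167, and a fit with no trend gave 42 lower. Leaving out 1 library gave 38 (without Control-IgG 2) to 292 (without Control-IgG 1) higher genes, 17 to 99 lower genes, and 0 to 3 higher identity genes. It gave 0 to 2 BMP genes (3 with all libraries), 0 to 2 progenitor genes (1 with all) and 0 to 4 mature genes (2 with all). The progenitor list had 0 calls with no trend, 2 at a mean of 10 FPKM or more and 3 in both limma-voom fits. The mature list had 0 calls with no trend, 1 with no robust variance, 1 with no filter, and 5 in limma-voom against 6 in its quantile form. The Notch list had 1 call in limma-voom. The cause of these moves was not tested.

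The shared replicate numbers were not taken to pair the libraries, since no label says that they mark a shared culture or day. Deviations of same-numbered libraries correlated at 0.2, 0.009 and 0.202. Differently numbered libraries were not compared, so these values cannot decide whether the libraries are paired. With the replicate block, 392 genes were higher and 215 lower, among them 5 higher identity genes (Plpp3, Aldh1l1, Fabp7, Clu and Cspg5) and 3 lower (Apoe, Gpc4 and Mertk), 2 progenitor genes and 7 mature genes.

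The sign of 12 uncalled identity genes with log2 fold changes near 0 turned round in some fits. Cst3 was 0.009 in the quantile form, Lhx2 was -0.014 under median scaling and -0.004 in the quantile form, and Sox9 was -0.007 under median scaling. Leaving out 1 library gave ranges of log2 fold change of -0.087 to 0.019 for Dbi, -0.037 to 0.023 for Id1, -0.062 to 0.022 for Acsbg1, -0.045 to 0.02 for Hepacam, -0.033 to 0.046 for Lhx2 and -0.007 to 0.043 for Sox9. The ranges were -0.035 to 0.025 for Notch2, -0.131 to 0.018 for Ttyh1, -0.045 to 0.041 for Nfib, -0.072 to 0.009 for Nfia and -0.018 to 0.139 for Pla2g7. Depth limits Tril, at 54 to 103 reads per library.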

Other observations

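Among the mature astrocyte genes outside the list, Slc25a18, a mitochondrial glutamate carrier singled out after its values were seen, had the highest log2 fold change (0.77, SE 0.224, adjusted p = 0.219 with limma). It had 18.7, 13.7 and 13.6 FPKM in AQP4-IgG libraries 1 to 3, against 10.3, 6.04 and 9.73 FPKM in Control-IgG libraries 1 to 3, so the groups were apart but the spread within each was wide. The oligodendrocyte lineage factor genes Olig1 and Olig2 were abundant for cultures labelled as astrocytes. Olig1 had 167, 163 and 149 FPKM under AQP4-IgG and 177, 172 and 179 FPKM under Control-IgG (adjusted p = 0.22 with limma), and Olig2 averaged 45.5 ± 2.16 and 51.4 ± 2.09 FPKM in the same order (SD, n = 3 each). Foxj1, the master factor of motile cilia, averaged 43.8 ± 2.9 FPKM under AQP4-IgG and 36.3 ± 2.41 FPKM under Control-IgG (SD, n = 3 each, adjusted p = 0.0803 with limma). Of 11 ependymal and choroid plexus markers 5 were listed, Foxj1 among them, with a median of 2.13 FPKM. Rsph1, Cfap126, Folr1 and Otx2 averaged 6.49, 2.1, 1.2 and 2.13 FPKM over the 6 libraries. Their ratios were 1.0, 1.11, 1.36 and 0.97, with overlapping groups.

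In the remaining marker lists, 1 of 9 fibroblast, meningeal and mural genes fell, Acta2, and 1 of 19 microglia genes, Cx3cr1, where 0.632% of all tested genes fell. Acta2 averaged 2134 ± 173 FPKM under AQP4-IgG and 2782 ± 147 FPKM under Control-IgG (SD, n = 3 each, adjusted p = 0.0243 with limma). Of 5 oligodendrocyte, 4 neuron, 2 endothelial, 5 ependymal and 13 patterning genes tested, 0 passed in limma, where 2.09% of all tested genes did. Without overlap, 4 of the 9 fibroblast, meningeal and mural genes and 5 of the 13 patterning genes lay lower under AQP4-IgG, where 8.58% of all tested genes did. In both of these lists 0 lay higher without overlap. The smallest adjusted p of the oligodendrocyte, neuron, endothelial and ependymal lists belonged to Olig2 (0.137), Map2 (0.682), Cdh5 (0.162) and Foxj1 (0.0803). Lyz2, the most abundant microglia marker, averaged 825 ± 55.0 and 833 ± 113 FPKM, and Stmn2, the most abundant neuron marker, 39.3 and 40.8 FPKM, under AQP4-IgG first.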
